A study of Mus musculus with 4 samples.

Results

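The 31 genes described here make, sense, move, store or export cholesterol, and were followed across 4 cell types of the mouse heart and between 2 maternal diets. They were chosen by name as genes of this pathway, with earlier results of these data known, out of the 31053 genes in the count matrices. They comprise 18 enzymes of the synthesis pathway, 5 genes of sterol sensing, and 8 genes of transport, storage, efflux and the oxysterol receptors. No cell-surface receptor of lipoprotein uptake is among them, and Vldlr and Lrp1 are described with the other genes of the pathway. The hearts came from 6-week-old offspring of dams that ate, through pregnancy and lactation, a feed either rich in resistant starch (the high-fibre diet, SF11-025) or poor in it (SF09-028). The labels call offspring of the second group offspring of control diet-fed dams, and control-diet is used for them here. All offspring of both groups were weaned at 3 weeks onto 1 standard chow, so the diets compared are those of the mothers. The enzymes that loosened the perfused hearts were dispase II at 1 mg/mL and collagenase IV at 2 mg/mL. Live, metabolically active, nucleated cells were sorted and captured by droplet for single-cell RNA sequencing.

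Cholesterol is built from acetyl-CoA through mevalonate, isoprenoids, squalene and lanosterol. The SREBP transcription factors switch on the genes of this route when sterols in the endoplasmic reticulum run low. SCAP escorts SREBP to the Golgi for activation and the INSIG proteins hold it back. When sterols are plentiful, the LXR receptors, encoded by Nr1h2 and Nr1h3, switch on the exporters ABCA1 and ABCG1. Most cells of the body make cholesterol, whereas macrophages take up much of theirs from lipoproteins and dead cells and pass it on.

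Each diet group had 2 libraries. Their totals ran from 27577599 UMIs (unique molecular identifiers, counts of captured RNA molecules) in control-diet library 2 to 69600492 in high-fibre library 2. All 4 libraries held cells with Y-linked transcripts and cells with Xist, so each held animals of both sexes. Male cells were 67.1% and 40.1% of sexed cells in high-fibre libraries 1 and 2, and 25.5% and 43.6% in control-diet libraries 1 and 2. The labels do not say that libraries are separate sets of animals, so p-values reflect only how far these libraries differ, which can be technical.

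Libraries shared cell barcodes. Of the barcodes that passed filters, control-diet library 2 shared 731, 743 and 460 with high-fibre library 1, high-fibre library 2 and control-diet library 1. In 669, 693 and 417 of these, one library held at least 10 times the UMIs of the other. Such low copies, 1970 in all and 85.1% of them copies of control-diet library 2 barcodes, were removed, which left 21974 cells. With the copies kept, the median log2 fold of the synthesis enzymes between diets was −0.41 in fibroblasts, as without them. The copies held few UMIs, so keeping them could move the sums little. Fibroblasts of high-fibre library 1 had 22482789 UMIs with the copies and 22361256 without. All 70 values recomputed with the copies kept, counts of calls and the fold of each gene given with its library values, kept their direction and their side of the threshold, or moved by less than the spread between libraries.

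Cell types were set by marker gates on single cells. A fibroblast held Col1a1 and Dcn with at least 3 UMIs together, an endothelial cell Pecam1 and Cdh5, a macrophage at least 3 UMIs of C1qa, and a pericyte Kcnj8 and Vtn. The gates took 6517 fibroblasts, 6927 endothelial cells, 3161 macrophages and 959 pericytes, and 858 cells that passed more than 1 gate were left out. In each gate 6 markers that were not used to set it were checked. The fibroblast markers summed to 35412 to 37730 CPM, UMIs of a gene scaled to 1000000 per library, in fibroblasts and at most 318 in endothelial cells or macrophages and 997 to 1170 in pericytes. The endothelial markers summed to 24632 to 28499 CPM in endothelial cells, 1608 to 2427 in pericytes and at most 193 in the other 2 types. The macrophage and pericyte markers were at least 11668 and 17742 CPM in their own gates and at most 71.9 and 201 in the others. Between 88.4% and 95.2% of each gate fell in clusters of the same name when cells were clustered on 2000 variable genes. The marker lists that named the clusters included the gate genes, so this is not a separate check of the gates. No member was used in a gate.

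The synthesis enzymes were highest as a group in fibroblasts. Summed over the 18 enzymes, normalised jointly over the 4 cell types, their level was 365, 457, 559 and 542 CPM in fibroblasts of high-fibre libraries 1 and 2 and control-diet libraries 1 and 2. The sums were 279 to 323 CPM in endothelial cells, 315 to 338 in macrophages and 285 to 355 in pericytes. Fibroblasts had the highest mean of the 4 types for 12 of the 18 enzymes. For 5 of those 12 every fibroblast library was above every library of the type with the next highest mean. Among these, Nsdhl and Cyp51 still overlapped with pericytes. Nsdhl was 15.1 CPM in pericytes and 12.3 in fibroblasts of high-fibre library 1. Cyp51 was 20.6 CPM in pericytes of control-diet library 2 and 19.8 in fibroblasts of high-fibre library 1. Levels are compared within a gene and not between genes, because the values are not adjusted for how well each transcript is captured.

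A gene was called in a cell type when it differed from the mean of the other 3 types at least 2-fold with an adjusted p under 0.05 (edgeR quasi-likelihood test, library as a block). In fibroblasts 7 of 31 members were called higher, all of them synthesis enzymes, against 18.6% of all genes tested. Lower calls took 2 of 31 members, against 11.8% of all genes. The median log2 difference of the 18 enzymes was 0.75, against 0.04 over all genes. The plot of levels by cell type shows this spread gene by gene.

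**Figure D1:**
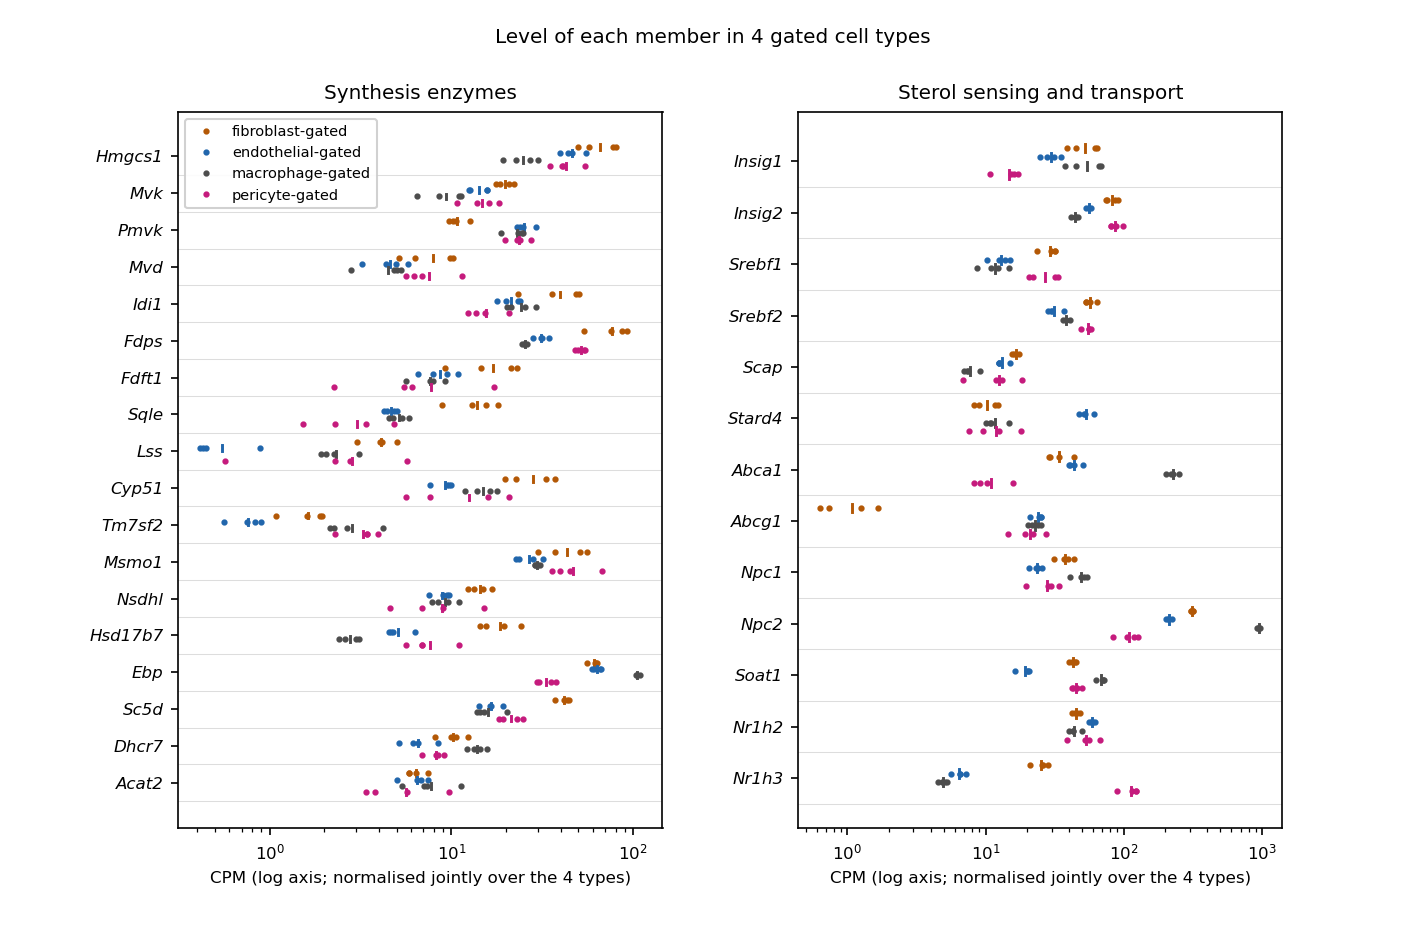
Level of each of the 31 members in CPM (log axis, normalised jointly over the 4 cell types), synthesis enzymes on the left and sensing and transport genes on the right. Each point is 1 library and each tick the mean of 4 libraries of that gated cell type. Fibroblast points lie to the right for Hsd17b7 and Sqle, macrophage points for Abca1 and Npc2, pericyte points for Nr1h3 and endothelial points for Stard4.

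Hsd17b7, a sterol ketone reductase late in the pathway, had the largest log2 difference from the other types among the enzymes in fibroblasts. It stood at 14.4, 15.6, 24.1 and 19.5 CPM in fibroblasts (18.4 ± 4.38, SD, n = 4 libraries). Pericytes had 7.60 ± 2.35, endothelial cells 5.08 ± 0.836 and macrophages 2.77 ± 0.323 CPM. All fibroblast libraries were above all others, with a log2 difference of 1.93 (SE 0.118, edgeR adjusted p = 6.2e-12). Macrophages were called lower for it, with a log2 difference of −1.67.

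Sqle, squalene epoxidase, which makes the first oxygenated sterol precursor, was 8.89, 12.9, 18.1 and 15.4 CPM in fibroblasts and 1.52 to 5.83 CPM in every library of the other types. Its log2 difference was 1.68 in fibroblasts and −1.12 in pericytes. Lss, which closes squalene epoxide into lanosterol, was sparse, with 3.02, 4.06, 4.16 and 5.04 CPM in fibroblasts. In endothelial cells Lss was 0.414, 0.448, 0.886 and 0.429 CPM, from 4, 6, 11 and 4 UMIs, and was called lower there with a log2 difference of −2.35. Cyp51, the lanosterol demethylase (chr5:4081145-4104746 on GRCm38, minus strand), was 19.8, 22.6, 37.2 and 33.1 CPM in fibroblasts. It stood at 14.97 ± 2.66 CPM in macrophages and 9.20 ± 1.04 in endothelial cells. Pericytes had 7.57, 5.65, 15.98 and 20.6 CPM of Cyp51, a range that overlapped that of fibroblasts.

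The other 3 enzymes called higher in fibroblasts were Sc5d, Fdps and Fdft1. Sc5d, which sets a double bond in the sterol ring, was 37.3, 43.5, 44.6 and 41.7 CPM there and 13.8 to 24.9 CPM in all other libraries. Fdps, which makes farnesyl diphosphate, was 53.4, 75.3, 92.4 and 86.7 CPM in fibroblasts and 48.1 to 54.0 CPM in pericytes, so the ranges of these types overlapped. Fdft1, squalene synthase, was 9.21, 14.5, 22.9 and 21.3 CPM, with a log2 difference of 1.10. In these 3 enzymes the lowest fibroblast value was that of high-fibre library 1.

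Not all enzymes followed that order. Pmvk, phosphomevalonate kinase, was lower in fibroblasts, at 10.5, 12.7, 10.2 and 9.67 CPM against 18.9 to 29.1 CPM in every other library, a log2 difference of −1.14. Ebp, the sterol isomerase, was highest in macrophages, at 105, 110, 103 and 104 CPM, and lowest in pericytes, at 30.3, 37.8, 29.7 and 35.5 CPM. Hmgcs1, the cytosolic HMG-CoA synthase at the head of the route, was called lower in macrophages, at 27.0, 19.2, 29.99 and 22.8 CPM. It stood at 65.8 ± 15.02 CPM in fibroblasts, 46.0 ± 6.47 in endothelial cells and 42.7 ± 8.03 in pericytes. Tm7sf2, a sterol reductase, was called higher in pericytes, at 3.44, 3.95, 2.28 and 3.44 CPM, from 3 to 7 UMIs a library, and lower in endothelial cells, at 0.828, 0.896, 0.564 and 0.751 CPM. Its pericyte call was lost without either high-fibre library (edgeR adjusted p = 0.0556 and 0.0761), and Tm7sf2 overlaps Vps51 on the same strand. The 7 enzymes not called in any type were Mvk, Mvd, Idi1, Msmo1, Nsdhl, Dhcr7 and Acat2. The difference between their highest and lowest mean ran from 1.37-fold for Acat2 to 2.55-fold for Idi1.

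The sterol-sensing genes differed less between types, with 1 call among the 5. Insig1, which encodes an anchor of SCAP, was 15.1, 10.7, 15.98 and 17.2 CPM in pericytes, lower than in any library of another type. The log2 difference there was −1.60. Insig1 was 54.6 ± 15.5 CPM in macrophages and 52.7 ± 12.7 in fibroblasts, whose ranges overlapped. Srebf2, the SREBP most tied to cholesterol synthesis, was 56.9 ± 5.25 CPM in fibroblasts, 54.7 ± 4.07 in pericytes, 38.3 ± 1.93 in macrophages and 31.3 ± 3.98 in endothelial cells. Srebf1, Insig2 and Scap had highest means 1.95 to 2.50 times their lowest.

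The widest separations between types were in transport genes. The summed level of the 8 was 1335 to 1438 CPM in macrophages against 353 to 530 in every library of the other types. Most of the macrophage sum was Npc2 and Abca1, with means of 945 and 226 CPM, so it does not describe the set as a whole. Macrophages had the highest mean for 4 of the 8 genes, endothelial cells for 3 and pericytes for 1. Of the 31 members, 5 were called higher in macrophages, against 18.8% of all genes, and 3 lower, against 21.2%. Endothelial cells had 2 higher and 4 lower calls, against 15.8% and 13.1%. Pericytes had 3 higher and 5 lower calls, against 13.7% and 14.4%.

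Abca1, the transporter that loads cholesterol onto lipid-poor apolipoprotein (chr4:53030787-53159895, minus strand), was 218, 203, 252 and 229 CPM in macrophages. It was 40.1 to 50.7 CPM in endothelial cells, 28.8 to 43.6 in fibroblasts, and 8.26, 15.8, 9.13 and 10.3 in pericytes. The log2 difference was 3.14 in macrophages (SE 0.093, edgeR adjusted p = 9.4e-14) and −2.62 in pericytes, and all macrophage libraries were above, and all pericyte libraries below, the rest. Npc2, which carries cholesterol inside the lysosome, was 947, 941, 976 and 916 CPM in macrophages and 105, 127, 119 and 83.6 in pericytes. Npc1, its membrane partner, was 48.8 ± 5.92 CPM in macrophages and 23.4 ± 2.02 in endothelial cells and met no call. Soat1, which esterifies cholesterol for storage, was 70.8, 62.5, 71.4 and 70.6 CPM in macrophages and was called lower in endothelial cells, at 19.8, 20.3, 20.6 and 16.2.

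Abcg1, the exporter to high-density lipoprotein, had its low point in fibroblasts. Its values there were 0.733, 0.635, 1.67 and 1.26 CPM, from 16, 18, 43 and 12 UMIs. The means were 23.9 ± 1.91 CPM in endothelial cells, 22.8 ± 2.17 in macrophages and 20.8 ± 5.45 in pericytes, which overlapped each other. The fibroblast log2 difference was −4.40 (SE 0.157, edgeR adjusted p = 7.2e-16), and the other 3 types were each called higher. Values in endothelial cells were 21.1, 25.2, 25.1 and 24.2, in macrophages 20.3, 21.7, 25.1 and 23.9, and in pericytes 14.5, 19.2, 22.1 and 27.5 CPM.

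Stard4, a cytosolic sterol carrier, had its high point in endothelial cells. It stood at 51.8, 47.7, 52.3 and 61.0 CPM in endothelial cells and 7.61 to 17.9 CPM in every other library, a log2 difference of 2.23 (SE 0.097, edgeR adjusted p = 4.2e-14). The means of the other 3 types, 10.3 to 11.9 CPM, differed by less than their spread.

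The 2 LXR genes had unlike patterns. Nr1h3, which encodes LXR alpha (chr2:91184061-91202834, minus strand), was 123, 115, 122 and 89.4 CPM in pericytes and 25.7, 26.2, 21.1 and 28.3 in fibroblasts. It was 5.59, 6.50, 7.17 and 6.54 CPM in endothelial cells and 5.26, 4.87, 4.53 and 5.07 in macrophages. The pericyte mean was 4.44 times the fibroblast mean and 22.8 times the macrophage mean, with no overlap between libraries. Its log2 difference was 3.61 in pericytes, −1.89 in endothelial cells and −2.43 in macrophages. Nr1h2, which encodes LXR beta, ran from 43.8 ± 4.10 CPM in macrophages to 58.8 ± 2.36 in endothelial cells and met no call. The exporter Abca1 had its highest level in the type where Nr1h3 was lowest, and its lowest level in the type where Nr1h3 was highest. The exporter Abcg1 did not share that order. It was lowest in fibroblasts, which were second for Nr1h3, and overlapped between pericytes, macrophages and endothelial cells. A link between Nr1h3 and either exporter was not tested.

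Of 25 other genes of sterol and fatty acid metabolism, 24 were tested between types. In fibroblasts 10 were called higher and 3 lower, against 18.6% and 11.8% of all genes. The higher ones had log2 differences of 4.69 for Scd1, 2.77 for Scd2, 2.38 for Fads2, 2.35 for Fasn, 1.98 for Elovl6, 1.60 for Fads1 and 1.20 for Acaca, which act in fatty acid synthesis, elongation or desaturation. The rest were the lipoprotein receptor genes Vldlr (5.81) and Lrp1 (3.60), and Aacs (1.06), while Lbr (−1.31), Mylip (−1.53) and Stard3 (−1.19) were lower. In macrophages 4 were higher and 8 lower, against 18.8% and 21.2% of all genes. The higher were Nceh1 (2.19) and Lipa (1.46), which free cholesterol from its esters, Stard3 (1.16) and Mylip (1.08). The lower were Scd2 (−4.05), Fads2 (−3.58), Vldlr (−3.09), Scd1 (−1.91), Elovl6 (−1.75), Acss2 (−1.30), Ggps1 (−1.27) and Elovl5 (−1.20). Endothelial cells had 2 higher and 5 lower, against 15.8% and 13.1% of all genes, with Elovl5 (1.94) and Lbr (1.31) higher, and Lrp1 (−6.24), Tmem97 (−1.72), Fads1 (−1.58), Fasn (−1.51) and Fads2 (−1.46) lower. Pericytes had 5 higher and 3 lower, against 13.7% and 14.4% of all genes, with Fads2 (2.65), Lrp1 (1.81), Scd2 (1.26), Acss2 (1.19) and Tmem97 (1.08) higher, and Nceh1 (−2.34), Vldlr (−2.32) and Scd1 (−2.01) lower.

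Between diets, the synthesis enzymes had lower values in fibroblasts of high-fibre offspring, and no member passed the test over all genes. For this comparison CPM values were normalised within a cell type, a different scale from the levels above, and log2 folds are high-fibre over control-diet. Summed over the 18 enzymes, fibroblasts of high-fibre libraries 1 and 2 had 362 and 453 CPM, and those of control-diet libraries 1 and 2 had 554 and 533. In the same cells the 8 transport genes summed to 526 and 504 against 493 and 489 CPM. Most of that sum was Npc2, at 317 and 315 against 302 and 300 CPM, so it does not describe the set as a whole. The log2 fold was below 0 for 14 of 18 enzymes, against 49% of all genes, with a median of −0.41 against 0.00 over all genes. It was below 0 for 3 of the 5 sensing genes and 3 of the 8 transport genes, whose median was 0.07.

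In 11 of the 18 enzymes both high-fibre libraries were below both control-diet libraries, as in 17.6% of all genes, and in 1 they were above, as in 18% of all genes. At an adjusted p under 0.05 the edgeR test called 0 of 31 members, and 1 of 13745 genes (0.00728%). An unadjusted p under 0.05 with lower values was reached by 9 of 18 enzymes and 12 of 31 members, against 2.82% of all genes. DESeq2 on the same sums called 4 members lower, Cyp51, Insig1, Hmgcs1 and Msmo1 (adjusted p = 0.00950 to 0.0153). Without high-fibre library 2 the edgeR test called 8 members, and without high-fibre library 1 the median moved to −0.22 and 0 were called.

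**Figure D2:**
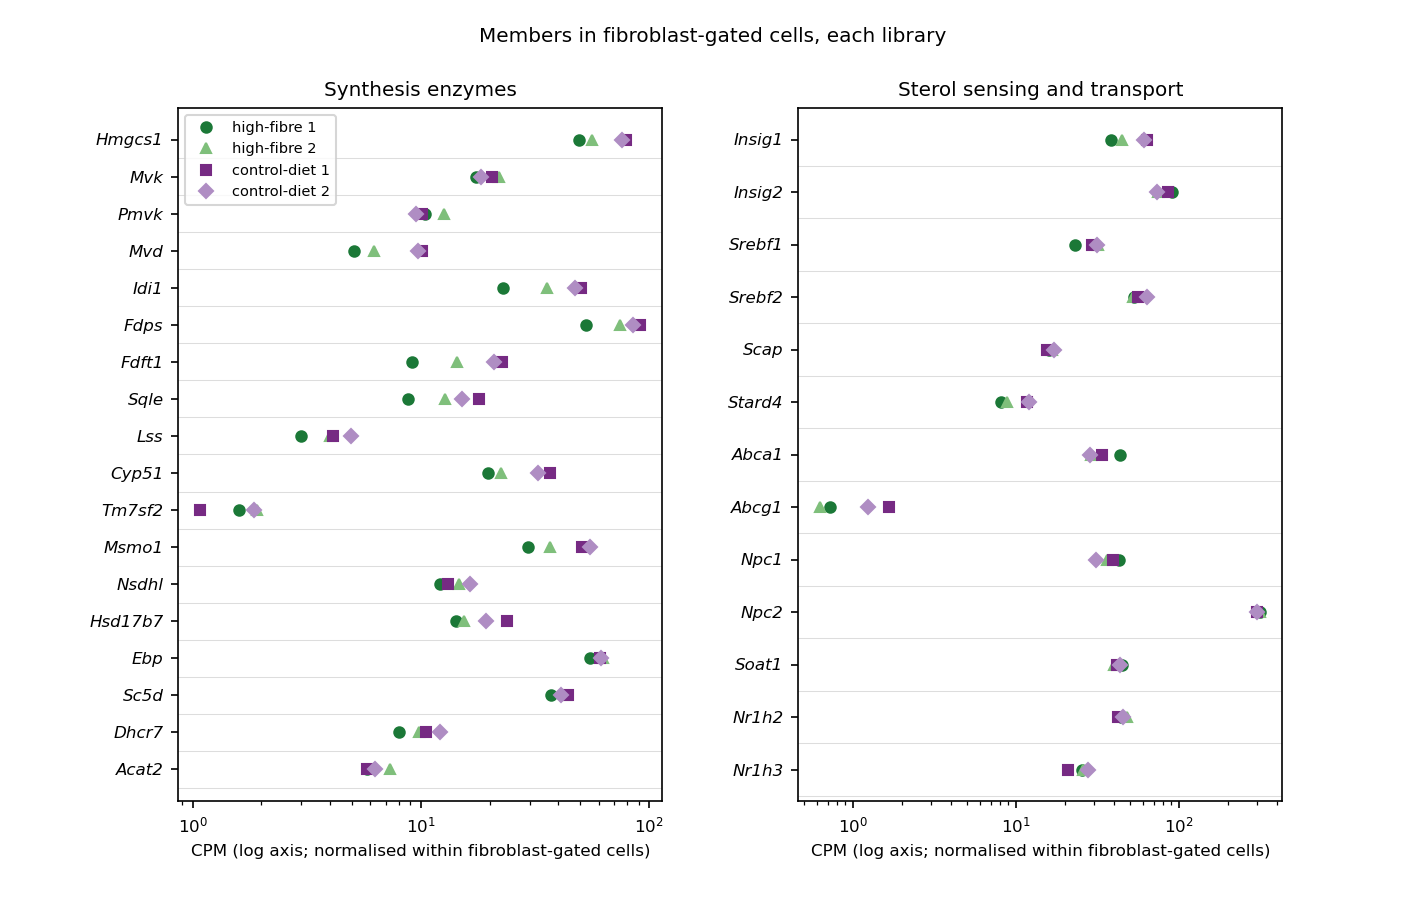
Level of each member in fibroblast-gated cells in CPM (log axis, normalised within fibroblasts), 1 point for each of the 4 libraries. The 2 high-fibre libraries (green) lie left of the 2 control-diet libraries (purple) for Cyp51, Msmo1, Hmgcs1, Mvd and Insig1, and the libraries overlap for most transport genes.

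Cyp51 had the smallest p of the members. Its values were 19.7 and 22.4 CPM in fibroblasts of high-fibre libraries and 36.9 and 32.6 CPM in those of control-diet libraries, with no overlap. The log2 fold was −0.73 (SE 0.111, edgeR adjusted p = 0.148). Msmo1, which acts later in the route than Cyp51, had 29.6 and 36.9 against 50.6 and 54.9 CPM, a log2 fold of −0.66 (SE 0.119). Hmgcs1 had 49.0 and 56.4 against 79.3 and 75.8 CPM, a log2 fold of −0.56 (SE 0.097). Insig1, itself a classical SREBP target, had 38.4 and 44.7 against 63.9 and 61.4 CPM, a log2 fold of −0.59 (SE 0.101). These 3 genes had an edgeR adjusted p of 0.220 each.

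Mvd, the mevalonate diphosphate decarboxylase, had 5.09 and 6.26 against 10.1 and 9.72 CPM, a log2 fold of −0.80 (SE 0.164). Hsd17b7 had 14.3 and 15.4 against 23.9 and 19.2 CPM, a log2 fold of −0.55 (SE 0.127). In each of these 6 genes high-fibre library 1 had the lowest value. Fdft1 (−0.89), Idi1 (−0.73), Sqle (−0.62), Fdps (−0.47), Lss (−0.34) and Dhcr7 (−0.32) also had both high-fibre libraries below both control-diet libraries. Pmvk was the exception on the other side, at 10.5 and 12.6 against 10.1 and 9.51 CPM. Mvk, Tm7sf2, Nsdhl, Ebp, Sc5d and Acat2 overlapped between the groups, with log2 folds from −0.11 to 0.35.

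Srebf2 had 53.2 and 52.5 against 56.1 and 63.4 CPM, a log2 fold of −0.17, while Srebf1, Insig2 and Scap overlapped between groups. Among transport genes Stard4 had 8.14 and 8.84 against 11.7 and 12.1 CPM (log2 fold −0.48), and Abcg1, at 12 to 43 UMIs a library, 0.727 and 0.629 against 1.66 and 1.24. Npc2, at 317 and 315 against 302 and 300 CPM, had a log2 fold of 0.07. Abca1, Npc1, Soat1, Nr1h2 and Nr1h3 overlapped, with log2 folds from 0.00 to 0.21 in size.

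Median depth differed with diet in these cells, and the share of male cells differed between libraries. Their part in the result was not tested except as stated. The median depth per fibroblast was 12099 and 12749 UMIs in high-fibre libraries against 13303.5 and 16325 in control-diet libraries. With cells of at least 2000 UMIs only, the median of the enzymes was −0.40. That cut kept 1774 of 1811 and 2208 of 2231 fibroblasts in high-fibre libraries 1 and 2. In control-diet libraries 1 and 2 it kept 1878 of 1888 and 586 of 587. It removed so few cells that it cannot test the depth difference. Male cells were 66.4% and 38.8% against 31.7% and 42.2% of sexed fibroblasts. Within female cells the median was −0.43, and within male cells −0.44. A sum over cells cannot tell fewer expressing cells from less RNA per cell.

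The enzymes were also summed within fibroblast clusters, as a description with no test, in CPM of all UMIs of the cluster. Clusters were named here by their leading genes, and shares of a cluster differed between libraries. Cluster 7, led by Cilp, Ltbp2 and Dio2, had the highest enzyme level in 3 of the 4 libraries, at 386.4 and 555.5 CPM in high-fibre libraries 1 and 2 and 710.7 and 755.9 CPM in control-diet libraries 1 and 2. In high-fibre library 1 clusters 29, led by Ifit3, and 3 were higher, at 472.2 and 435.0 CPM. Cluster 22, led by Wif1, was among the lowest, at 173.0 to 274.4 CPM, and held 8 to 113 cells a library. In 5 of 7 clusters both high-fibre libraries were below both control-diet libraries. All clusters come from the same 4 libraries, so they are not separate support, and the share over all genes was not computed. In cluster 1, led by Hsd11b1, high-fibre library 2 had 480.1 CPM and control-diet library 2 had 488.9. Cluster 29 held 13 to 33 cells a library. The libraries overlapped in cluster 22 and in cluster 3, led by Efhd1 and Cd248, where the values were 435.0 and 480.1 against 567.5 and 454.8 CPM. Cluster 3 made up 17.5% of fibroblasts in high-fibre library 1 and 24.3% to 28.5% in the other libraries.

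**Figure D3:**
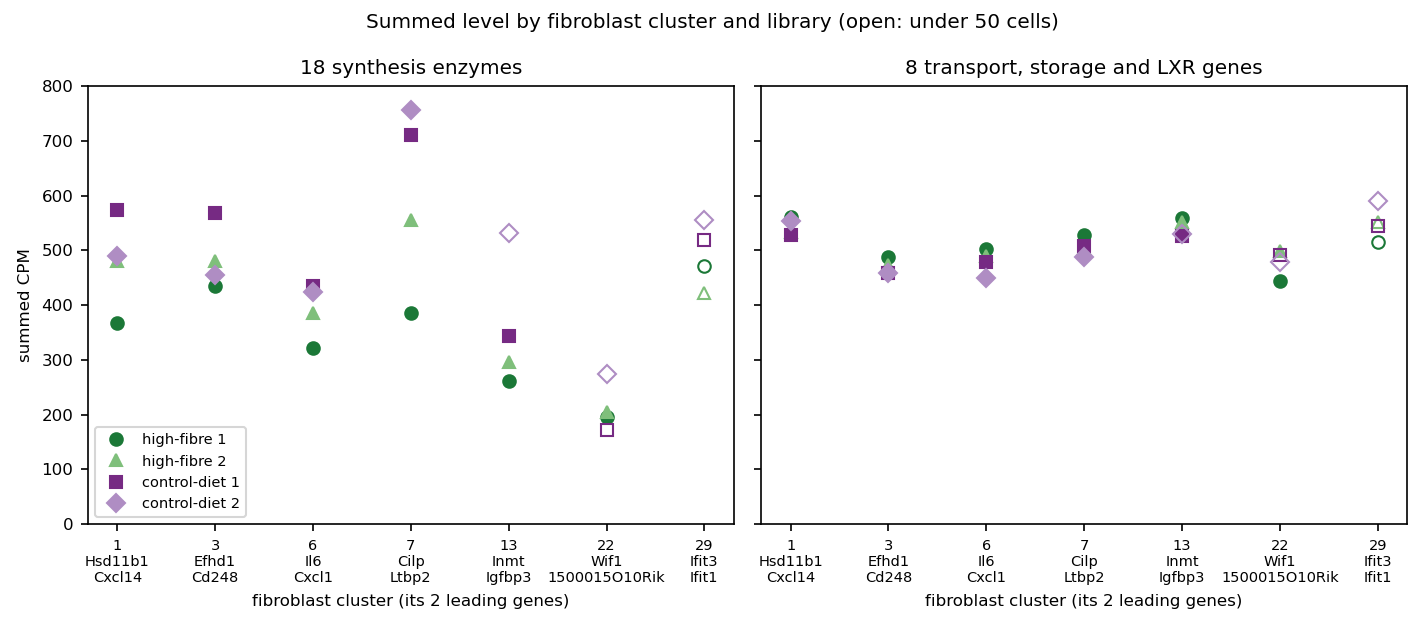
Summed CPM of the 18 synthesis enzymes (left) and the 8 transport, storage and LXR genes (right) in each of 7 fibroblast clusters, 1 point a library, open where the library had fewer than 50 cells. The enzyme sum spans 386.4 to 755.9 CPM in cluster 7, and the transport sum lies between 443.7 and 590.6 CPM in every cluster and library.

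Promoters are shown because the members of smallest p include known SREBP targets, and SREBP acts with the CCAAT-binding factor NF-Y. The set of RefSeq promoters (GRCm38.p6) used here held 25 of the 31 members. Missing from that set, and so not searched, were Fdps, Fdft1, Sqle, Stard4, Abcg1 and Npc1. The 250 bases before the start were searched on both strands for a sterol element, TCACNCCAC, and for CCAAT, neither of which contains the other. The sterol element was in 1 of the 25, that of Hmgcs1, and in 1.0% of 27025 promoters. CCAAT was in 13 of 15 synthesis promoters, 4 of 5 sensing promoters and 2 of 5 transport promoters, against 34.5% of all promoters. A match describes letters only. Of the 6 members of smallest p with a match, Cyp51 and Msmo1 are not printed because their matches lie in bases that GENCODE counts as exon.

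The 4 others are given 5′ to 3′ with matches in capitals (ATTGG is CCAAT on the other strand), without bases in any GENCODE exon. Hmgcs1 is chr13:119690101-119690350 (plus strand), Insig1 chr5:28071162-28071362 (plus), Mvd chr8:122443423-122443672 (minus) and Hsd17b7 chr1:169969242-169969408 (minus).
Hmgcs1: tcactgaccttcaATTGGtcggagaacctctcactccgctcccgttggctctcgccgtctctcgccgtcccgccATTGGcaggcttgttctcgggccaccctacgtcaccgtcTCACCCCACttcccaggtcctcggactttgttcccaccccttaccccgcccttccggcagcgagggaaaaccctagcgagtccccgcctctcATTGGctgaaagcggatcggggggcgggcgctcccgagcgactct
Insig1: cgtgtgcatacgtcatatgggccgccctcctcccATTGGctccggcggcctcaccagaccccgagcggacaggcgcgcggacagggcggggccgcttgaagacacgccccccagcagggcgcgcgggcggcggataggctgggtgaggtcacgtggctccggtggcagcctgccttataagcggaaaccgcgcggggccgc
Mvd: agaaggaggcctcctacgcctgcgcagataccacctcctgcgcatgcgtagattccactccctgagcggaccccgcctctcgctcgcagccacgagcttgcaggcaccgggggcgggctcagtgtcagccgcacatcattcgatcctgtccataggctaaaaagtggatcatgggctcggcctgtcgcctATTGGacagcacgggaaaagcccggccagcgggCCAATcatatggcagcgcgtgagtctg
Hsd17b7: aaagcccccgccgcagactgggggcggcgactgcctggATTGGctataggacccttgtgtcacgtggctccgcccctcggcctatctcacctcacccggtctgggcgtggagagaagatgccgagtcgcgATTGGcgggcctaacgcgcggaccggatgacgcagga
The single sterol element of Hmgcs1 starts 137 bases before its start, between CCAAT matches that start 176 and 45 bases before it. In fibroblasts these 4 genes, picked by the p-values of that comparison, had log2 folds of −0.56, −0.59, −0.80 and −0.55, in the order printed. Apart from these and Cyp51 and Msmo1, the synthesis enzymes with a CCAAT match had folds on both sides of 0. They were Idi1 (−0.73), Lss (−0.34), Nsdhl (−0.11), Sc5d (−0.09), Ebp (−0.05), Mvk (0.01), Pmvk (0.23) and Tm7sf2 (0.35). A link between matches and folds was not tested.

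In endothelial cells the median of the enzymes was also below 0, and no member passed the test. Of 16 enzymes tested, 11 had a log2 fold below 0, against 49.7% of all genes, with a median of −0.18 against 0.00. Both high-fibre libraries were below both control-diet libraries in 7 of 16 enzymes (17.2% of all genes) and above in 2 (17.9%). The edgeR test called 0 of 29 members and 5 of 12544 genes (0.0399%), and an unadjusted p under 0.05 was reached by 4 members and 6.09% of genes. DESeq2 also called 0 members. Lss and Tm7sf2 were too low to test.

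Msmo1 had the smallest p in endothelial cells, with 24.2 and 22.8 CPM against 28.0 and 32.1, a log2 fold of −0.35 (SE 0.121, edgeR adjusted p = 0.601). Insig1 had 25.4 and 28.1 against 31.5 and 35.6 CPM (−0.32), Fdft1 6.69 and 7.95 against 10.9 and 9.49 (−0.47), and Idi1, isopentenyl diphosphate isomerase, 20.5 and 17.9 against 23.4 and 23.8 (−0.30). Hmgcs1 had 45.0 and 39.5 against 45.9 and 55.1 CPM (−0.26). In all 5 genes the groups did not overlap. Pmvk had 25.3 and 29.3 against 23.9 and 23.1 CPM (0.22), the side it also took in fibroblasts. Cyp51 had a log2 fold of −0.17. Transport genes had a median of −0.03, with 4 of 8 below 0. Erythroid transcripts summed to 5925 and 1756 CPM in high-fibre endothelial libraries and 1002 and 1307 in control-diet ones. The median depth per endothelial cell was 5027 and 4888 UMIs in high-fibre libraries and 5906 and 6437 in control-diet ones. The part of erythroid transcripts or depth in these values was not tested. Without high-fibre library 1 the median of the enzymes was −0.09, and with female cells alone −0.10.

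In macrophages the enzymes did not lean to one side. The log2 fold was below 0 for 8 of 18, against 50.2% of all genes, with a median of 0.02. Both high-fibre libraries were below in 4 enzymes and above in 4, against 17.2% and 15.8% of all genes. The edgeR test called 0 of 31 members and 0 of 11590 genes (0%), DESeq2 called 0 genes, and 459 genes (3.96%), 1 of them a member, had an unadjusted p under 0.05.

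Idi1 was that member, with 17.0 and 16.03 CPM in high-fibre libraries against 23.4 and 21.1 in control-diet libraries, a log2 fold of −0.44 (SE 0.139). Cyp51 stood on the other side from fibroblasts, with 13.2 and 14.1 against 9.53 and 11.5 CPM, a log2 fold of 0.40 (SE 0.179). Abca1 had 176 and 161 against 203 and 190 CPM (−0.23), and Abcg1 16.4 and 17.1 against 20.2 and 19.9 (−0.26). The sign of Abcg1 turned when cells of either sex were taken alone (0.02 in female, 0.01 in male cells). Acat2, an acetyl-CoA thiolase, had 9.05 and 5.78 against 5.64 and 4.45 CPM, and Sc5d 12.1 and 10.9 against 16.2 and 11.9, where the groups overlapped. Insig1 had 53.5 and 29.9 against 55.3 and 37.5 CPM, so that the libraries numbered 1 were above the libraries numbered 2 in both groups. Of the 8 transport genes 6 were below 0, with a median of −0.10.

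Pericytes were the thinnest set, with 125 to 337 cells a library, and 24 members were tested. The enzymes had a median of −0.01 over the 11 tested, 6 of them below 0, against 50.9% of all genes. Both high-fibre libraries were below in 4 and above in 2, against 17.2% and 16.4% of all genes. The edgeR test called 0 members and 7 of 9167 genes (0.0764%), and an unadjusted p under 0.05 was reached by 2 members and 5.16% of genes. DESeq2 also called 0 members.

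Cyp51 had the smallest p in pericytes, with 9.55 and 7.03 CPM against 20.1 and 26.1, from 11 and 10 against 21 and 18 UMIs. Its log2 fold was −1.45 (SE 0.412, edgeR adjusted p = 0.315). Msmo1 had 45.1 and 49.2 against 56.4 and 85.5 CPM (−0.54), with a log2 fold of 0.27 in male cells alone, and Hmgcs1 51.2 and 43.6 against 67.9 and 52.2 (−0.38). Nsdhl, a sterol dehydrogenase, had 19.1 and 11.2 against 8.60 and 5.80 CPM (0.98), from 22, 16, 9 and 4 UMIs. Abcg1 had 18.2 and 23.9 against 27.7 and 34.8 CPM (−0.53), and Mvk, mevalonate kinase, 17.4 and 13.4 against 22.9 and 20.3 (−0.52). In these 6 genes the groups did not overlap. Of the 8 transport genes 7 were above 0, with a median of 0.16, and Abcg1 was the one below. Endothelial check markers summed to 2427 and 2025 CPM in high-fibre pericytes and 1655 and 1608 in control-diet ones. The median depth per pericyte was 4181 and 4183 UMIs in high-fibre libraries and 4639.5 and 5430 in control-diet ones. The part of endothelial RNA or depth in these values was not tested. Nr1h3, high in this type, had 154 and 143 against 154 and 113 CPM, which overlapped.

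**Figure D4:**
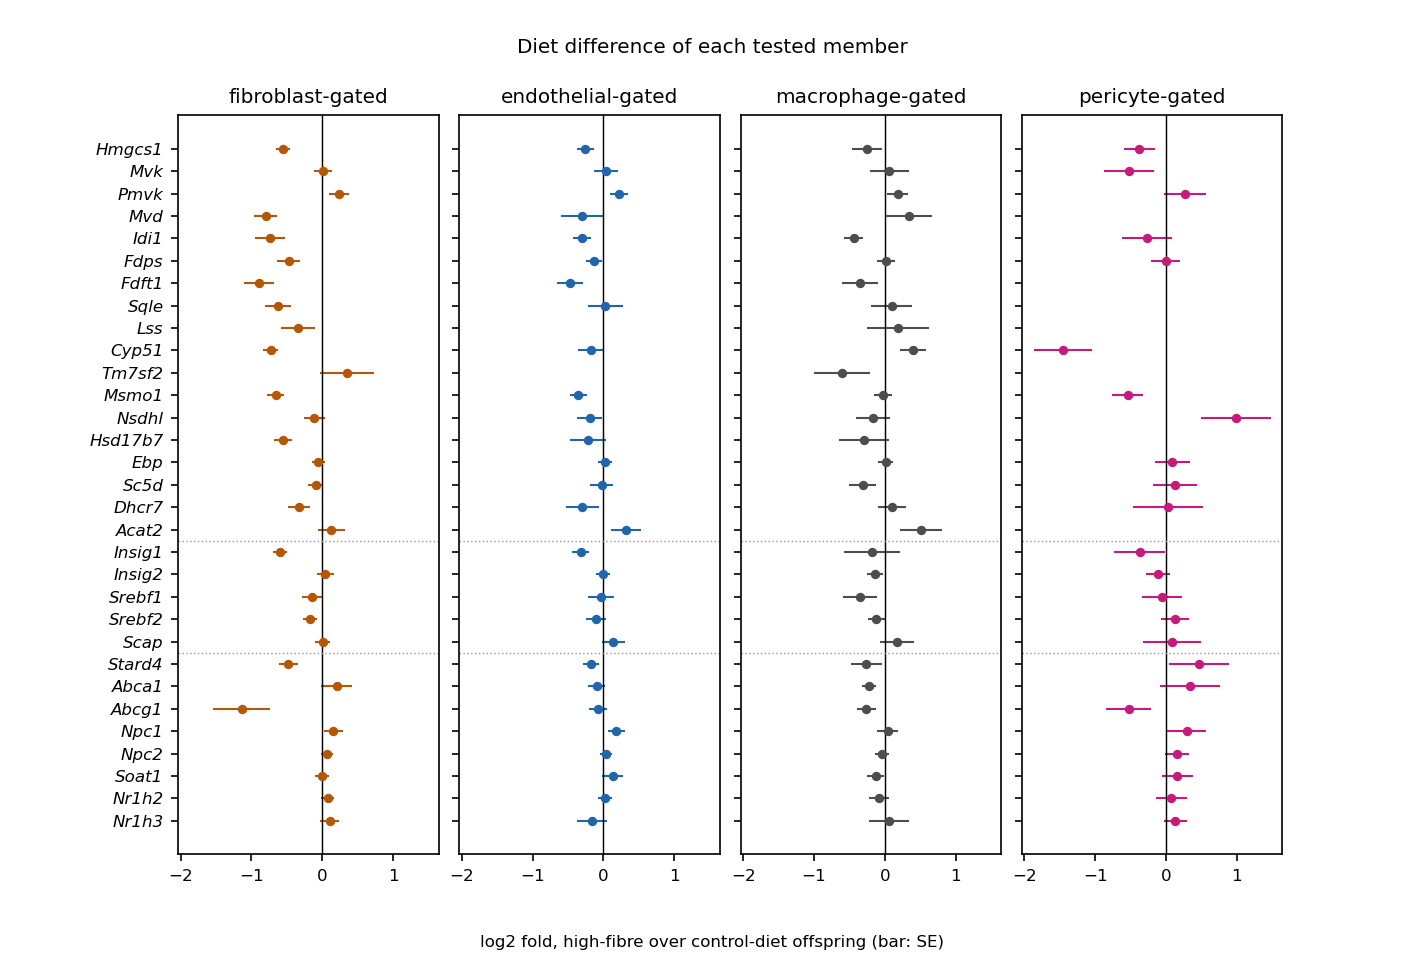
Log2 fold of high-fibre over control-diet offspring for each tested member (point) with its standard error (bar), in 4 gated cell types, with synthesis, sensing and transport genes separated by dotted lines. In fibroblasts 14 of 18 enzymes lie left of 0, in macrophages 8 of 18, and in pericytes 7 of 8 transport genes lie right of 0.

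The differences between cell types in these diet effects were tested within libraries with limma for 6 pairs of types, and no member was called in any pair. Over all genes, 0.108% were called for fibroblasts against endothelial cells, 0.0182% against macrophages and 0.055% against pericytes. The shares were 0.147% for endothelial cells against macrophages, 0.1% against pericytes, and 0.0468% for macrophages against pericytes. At an unadjusted p under 0.05, fibroblasts differed from endothelial cells in 6 of 29 members and 886 of 12034 genes, from macrophages in 7 of 31 members and 663 of 11014 genes, and from pericytes in 2 of 24 members and 541 of 9094 genes. Endothelial cells differed from macrophages in 1 of 29 members and 655 of 10875 genes and from pericytes in 2 of 24 members and 508 of 8972 genes. Macrophages and pericytes differed in 2 of 24 members and 450 of 8554 genes. Cyp51 had the smallest adjusted p of fibroblasts against macrophages, with a log2 fold lower by 1.10 in fibroblasts (SE 0.194, limma adjusted p = 0.223), and of macrophages against pericytes (difference 1.67, SE 0.357, adjusted p = 0.317).

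Of the 25 other genes of the pathway, 25, 23, 22 and 18 were tested between diets in fibroblasts, endothelial cells, macrophages and pericytes, and the edgeR test called 0 in each. An unadjusted p under 0.05 was reached by 3, 2, 0 and 4 of them, against 6.4% of all genes in fibroblasts and the shares above in the other types. In fibroblasts 16 of 25 were below 0, with a median of −0.07. The smallest p values there belonged to Elovl5, at 17.7 and 19.2 against 22.5 and 22.1 CPM, Scd2, at 95.9 and 110.7 against 127.5 and 118.8, and Fads1, at 44.6 and 46.2 against 51.9 and 53.5, all genes of fatty acid elongation or desaturation. In endothelial cells they were Scd1 (7.53 and 5.70 against 4.11 and 2.59 CPM), Lrp1 (5.31 and 6.23 against 3.31 and 3.24) and Tmem97 (7.96 and 7.50 against 9.11 and 11.0). Scd1 and Lrp1 are fibroblast-high genes, and fibroblast check markers summed to 241 and 318 against 232 and 195 CPM in the same endothelial sums. Most of that difference was in Gsn (141 and 198 against 127 and 93.1 CPM), while Lum (60.4 and 68.3 against 73.1 and 71.8) lay on the other side and the gate genes Col1a1 and Dcn together overlapped (319 and 368 against 442 and 297). The part of fibroblast RNA in these values was not tested. In macrophages they were Scd1 (1.64 and 1.93 against 3.13 and 2.58 CPM), Acss2 (3.46 and 4.06 against 4.64 and 6.56) and Ggps1 (22.4 and 21.1 against 19.9 and 16.6). In pericytes they included Stard3 (27.8 and 28.8 against 40.2 and 52.2 CPM) and Lbr (33.0 and 32.3 against 48.8 and 52.2).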

How the data were processed

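The authors deposited whole-number UMI counts per gene and barcode for each of 4 libraries, made with Cell Ranger 3.1.0 on the mm10 genome build, per the submitters' processing notes. Barcodes with at least 500 UMIs, 250 genes and at most 20% mitochondrial UMIs were kept (23944 of 26765). A barcode was removed from a library where another library held at least 10 times its UMIs for the same barcode. No doublet caller was run; cells passing more than 1 gate were left out.

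The deposited counts were summed per library and gated type, since cells are not replicates. Genes were kept by filterByExpr (minimum count 10) and tested in edgeR 4.0.16 (TMM, robust quasi-likelihood; R 4.3.3) and p-values were adjusted over all genes (Benjamini-Hochberg). Diet effects of 2 types were compared with limma 3.58.1 on within-library log2 differences (prior count 2). DESeq2 1.42.0, no low-count filter, a replicate block, stricter gates, clusters (leidenalg 0.10.2), single sexes, a joint fit and leaving out each library were the alternatives. Keeping shared barcodes and a 2000-UMI minimum were added after seeing the data. The fits were tested on simulated data.

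Members and lists were chosen with earlier results of these data known. In each diet comparison the 6 members of smallest p are given with every library's value, in each level comparison the 3 largest rises and 2 largest falls, and every called member. Other pathway genes are named where called, or as the 3 of smallest p per type. A result that this rule would name is not reported here. Gene coordinates are from GENCODE M21 (GRCm38), matched by Ensembl ID for 99.9% of genes.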

Additional observations from a re-analysis of the deposited data

How the results depend on the processing

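With 2 libraries a group, precision is limited, and the part of depth in that was not tested. Values in pericytes, and those of Lss, Tm7sf2 and fibroblast Abcg1, rest on few UMIs. So do some macrophage values, such as Mvd and Acat2 with 10 and 19 UMIs in control-diet library 2. The count of called members stayed at 0 in endothelial cells, macrophages and pericytes under every alternative run, and counts of level calls stayed within 1.5 times. In fibroblasts it was 4 with DESeq2, 10 with no low-count filter (304 of 19714 genes called, against 1) and 0 to 8 when leaving out each library. The median log2 fold of the enzymes ran from −0.59 to −0.22 in fibroblasts, −0.174 to −0.0858 in endothelial cells, −0.0347 to 0.0278 in macrophages and −0.131 to −0.0233 in pericytes when leaving out each library. With clusters in place of gates it was −0.30 in endothelial cells, −0.0652 in macrophages and −0.24 in pericytes. With female cells it was −0.10, −0.12 and −0.27 in that order. In macrophages it was −0.13 with male cells and 0.0538 in the joint fit. Reversed were Abcg1 in macrophages (0.0214 in female, 0.0150 in male cells) and Msmo1 in pericytes (0.27 in male cells). The cause was not tested.

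The replicate block gave medians of −0.44, −0.19, 0.02 and 0.01 in fibroblasts, endothelial cells, macrophages and pericytes and called 0 members, while genes called over all genes went from 1, 5, 0 and 7 to 9, 120, 23 and 26. Deviations of same-numbered libraries correlated at 0.076, 0.218, 0.171 and 0.092 over genes, and with 2 numbers this does not show that they pair. Over all genes DESeq2 called 43, 36, 0 and 3. The joint fit called 9, 25, 0 and 0.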
